A study of Rattus norvegicus with 27 samples.

Results

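The collagen chain genes are the genes whose symbol in the count table is wholly Col, digits, the letter a and digits. This rule found 27 of the 17321 genes in the table. Col4a3bp begins with the same letters but encodes no collagen chain and was left out. The samples were punches of 2 mm aimed at the interpositus nucleus (IP), a deep cerebellar nucleus, of Long-Evans rats at postnatal day 70. The 4 groups were normally reared females (no treatment, NT, n = 5), NT males (n = 7), limited bedding females (LB, n = 7) and LB males (n = 8). LB litters were housed with little nesting material from postnatal day 2 to 9, all litters were cross-fostered, and after weaning rats lived in cages matched for sex and treatment. One library was made per animal, and animals are named here by their number in the labels. That number falls into 10 prefixes, 2 or 3 in each group, each holding animals of 1 group only, so no comparison of groups can be made within a prefix, and the labels do not say which animals shared a dam.

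Collagens are built from 3 chains wound into a triple helix. Fibrillar collagens (types I, II, III, V, XI and XXVII) form the fibres of connective tissue. Type IV collagen forms the sheet of the basement membrane around vessels and under the pia, and the multiplexins (XV and XVIII) are tethered to that membrane. FACIT collagens (IX, XIV and XVI) sit on the surface of fibrils, type VI forms beaded filaments, type VIII a network, and XIII, XVII and XXIII are transmembrane. In the brain, fibrillar collagen is known mainly from the meninges and large vessels and basement membrane collagen from the whole vasculature, while the parenchyma holds little of either.

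Total counts per library were 11836684 to 24169170 (median 16034036), and no 2 libraries of a group held identical counts. Eif2s3y, a gene of the Y chromosome, had at least 516 counts in each male and at most 3 in each female. Markers of the labelled tissue were uneven. Slc17a6, the vesicular glutamate transporter of deep nucleus projection neurons, had a median of 2.77 CPM (counts scaled by library size), was 2.46 to 2.89 CPM in NT females and ran from 0.280 to 380.3 CPM in NT males, while the summed CPM of 7 granule cell genes was 1965 to 6953. The NT males held the lowest granule cell sum (1965, NT male 6112) and the highest sum of 5 deep nucleus genes (3964, the same animal). In NT male 4113, 7 choroid plexus genes summed to 6527 CPM, against at most 257.3 CPM in the other 26 animals.

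Of the 27 chains, 24 had enough counts for a test. The other 3 were Col9a1 (0 to 21 counts per animal), Col6a4 (0 to 5 counts) and Col1a2 (0 to 4 counts). All 27 chains together took 0.0290% to 0.0514% of a library's counts (median 0.0388%), and 3 counts, used as the floor, corresponded to 0.125 to 0.260 CPM.

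RefSeq promoter windows of the GRCr8 build were matched by symbol for 22 of the 27 chains. Col1a1, Col2a1, Col3a1, Col6a2 and Col14a1 had none. The counts were made on the older rn6 build, and no coordinate was moved between builds. Col4a3 and Col4a4, which encode partner chains of 1 type IV trimer, lie head to head. Their models were 567 bases apart on rn6 chromosome 9, and in GRCr8 their starts were 413 bases apart. The 250 bases before each start are shown because they overlap: the 88 bases in capitals (chr9:91323740-91323827) are the same stretch read on opposite strands. The Col4a3 window is chr9:91323740-91323989 on the plus strand and the Col4a4 window chr9:91323578-91323827 on the minus strand.
Col4a3: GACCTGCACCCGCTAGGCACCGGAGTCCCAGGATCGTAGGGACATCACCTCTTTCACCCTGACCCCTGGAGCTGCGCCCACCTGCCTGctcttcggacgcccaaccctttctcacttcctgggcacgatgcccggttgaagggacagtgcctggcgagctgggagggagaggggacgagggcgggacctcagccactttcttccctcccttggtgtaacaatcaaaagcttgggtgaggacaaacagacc
Col4a4: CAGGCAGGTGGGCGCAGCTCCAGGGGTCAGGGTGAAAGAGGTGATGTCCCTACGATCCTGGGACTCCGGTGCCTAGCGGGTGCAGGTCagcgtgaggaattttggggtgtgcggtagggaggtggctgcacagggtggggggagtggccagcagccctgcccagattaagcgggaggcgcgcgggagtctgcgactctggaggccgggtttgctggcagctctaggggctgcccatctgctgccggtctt

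The next 3 windows belong to chains that passed the test of sex in NT rats, with Col11a2 and Col8a1 higher in males and Col18a1 lower. They are chr20:4817649-4817898 on the minus strand, chr11:56246532-56246781 on the plus strand and chr20:11473395-11473644 on the plus strand, each 250 bases before the start. Capitals mark GGGCGG, the GC box, on either strand. Overlapping matches were merged, as in Col11a2.
Col11a2: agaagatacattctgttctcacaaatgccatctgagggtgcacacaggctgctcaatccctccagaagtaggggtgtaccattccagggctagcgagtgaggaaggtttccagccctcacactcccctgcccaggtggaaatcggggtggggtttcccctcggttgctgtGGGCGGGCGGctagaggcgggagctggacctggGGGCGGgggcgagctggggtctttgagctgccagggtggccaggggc
Col8a1: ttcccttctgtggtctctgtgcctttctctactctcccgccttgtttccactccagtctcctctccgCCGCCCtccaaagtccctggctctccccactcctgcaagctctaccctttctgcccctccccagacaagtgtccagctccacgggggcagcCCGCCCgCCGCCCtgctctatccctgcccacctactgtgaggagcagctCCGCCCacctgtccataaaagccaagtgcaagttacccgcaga
Col18a1: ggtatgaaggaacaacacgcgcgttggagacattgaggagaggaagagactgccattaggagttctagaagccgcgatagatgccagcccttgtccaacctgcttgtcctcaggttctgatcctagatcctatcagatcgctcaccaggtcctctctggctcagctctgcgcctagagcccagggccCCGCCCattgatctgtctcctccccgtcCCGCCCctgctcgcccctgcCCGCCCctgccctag

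Col11a2 and Col18a1 held 3 GGGCGG matches each and Col8a1 held 4. The other chains called in NT rats, Col5a3 and Col16a1, held 3 and 2. GGGCGG was present in 12 of 22 collagen windows (54.5%) and in 30.5% of 33469 windows of all genes. The collagen windows were also richer in G and C, with a median of 61.2% against 51.2% for all windows. TATAAA was found in 3 collagen windows (13.6%, against 12.9% of all windows), and CCAAT in 6 (27.3%, against 34.0%), each counted on both strands. These matches describe letters in the windows and were not set against binding data.

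Levels were compared between chains as CPM per kilobase of exon. Col9a2, a chain of the FACIT type IX that coats type II fibrils, had the highest mean over the 27 animals, at 15.1 ± 4.61 CPM per kilobase (SD, n = 27). Col18a1, whose product is a heparan sulphate bearing protein of basement membranes and the source of endostatin, followed at 12.4 ± 2.82. Col1a1, the main chain of type I fibrils, stood at 9.61 ± 3.55, and Col4a1, of the common type IV trimer, at 8.28 ± 2.10. Their ranges overlapped from animal to animal, so the order of these 4 chains holds for the means and not within each animal. Col3a1, the chain of the reticular fibres of vessel walls, had 6.30 ± 2.30 CPM per kilobase.

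Below them stood a middle set between 1.58 and 4.52 CPM per kilobase. It held Col11a2, Col6a2, Col27a1, Col5a2, Col23a1, Col5a3, Col13a1, Col16a1 and Col5a1. The type V and XI chains of this set join type I and type II fibrils as minor partners. The remaining 10 tested chains had means under 1 CPM per kilobase, from Col11a1 (0.831) down to Col17a1 (0.111), the hemidesmosome collagen of skin. Col2a1, the main collagen of cartilage, stood at 0.554, and Col7a1, of the anchoring fibrils of skin, at 0.162.

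**Figure D1:**
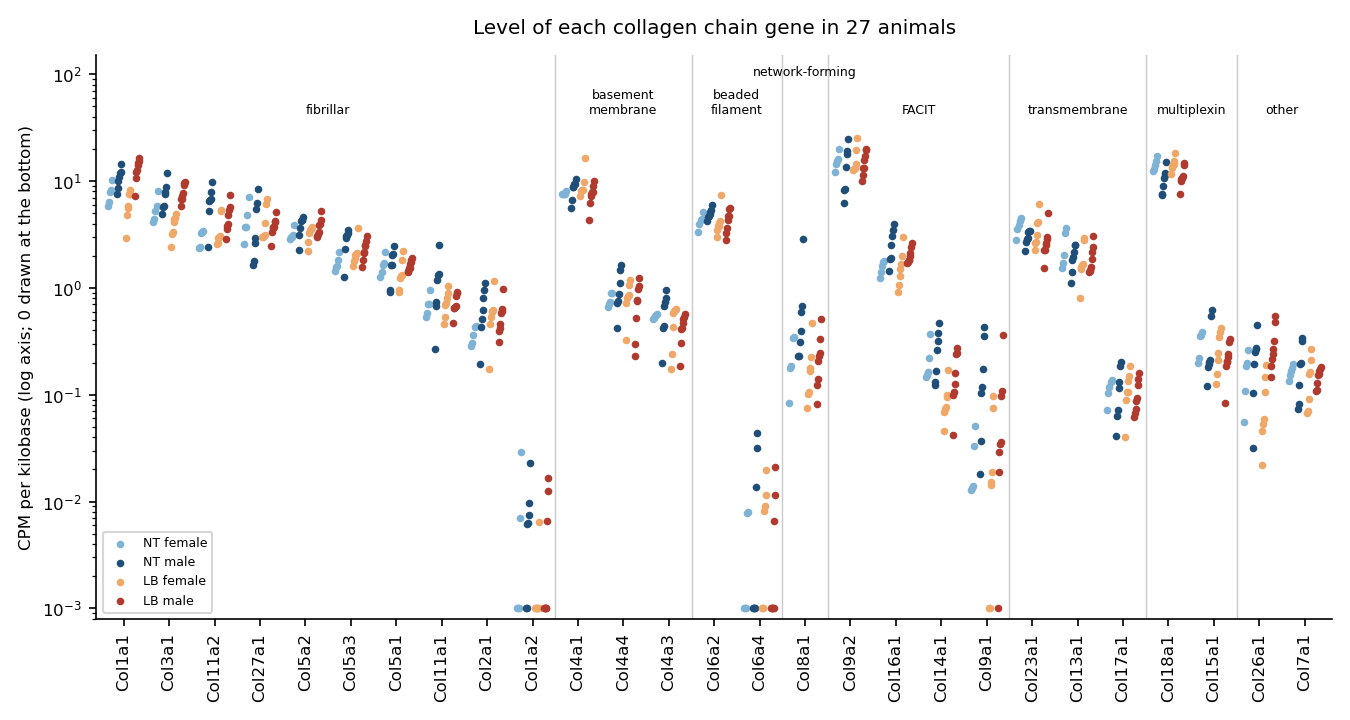
Level of each of the 27 collagen chain genes, as CPM per kilobase of exon on a log axis, with 1 point per animal coloured by group and vertical lines between collagen classes. Col9a2, Col18a1, Col1a1 and Col4a1 have the highest means, and Col1a2 is at or near 0 in every animal.

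Col1a2 encodes the partner chain of Col1a1 in type I collagen, yet it had 0 to 4 counts where Col1a1 had 281 to 1981. The table's Col1a2 model joined 2 copies of 52 exons with the same lengths on rn6 chromosome 4, at 29529854 to 29564781 and 31534225 to 31569152. A looser rule took any model whose exons formed 2 sets of mostly matching lengths. The sets could lie in the same or reversed order, on the same or different chromosomes. Among 10640 genes with at least 6 exons, 271 met it. The filter on low counts kept 31 of them (11.4%), against 83.8% of the other genes. The RefSeq table of GRCr8 listed Col1a2 once. Whether reads that match both copies were dropped is not given in the sources used here, so the Col1a2 values were not read as its level. The Col4a4 model was also short, with 7 exons and 1152 bases, and its level per kilobase rests on those exons.

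Variation between animals differed among chains. Among the chains with a mean over 1 CPM per kilobase, the highest animal exceeded the lowest by 2.37-fold for Col5a2, 2.47-fold for Col18a1 and 2.60-fold for Col6a2, and by 5.07-fold for Col27a1 and 5.60-fold for Col1a1. Part of the Col1a1 spread lay between groups. The SD of its log2 CPM was 0.58 over all animals and 0.39 within groups, and for Col3a1 these were 0.54 and 0.36. For Col9a2 and Col27a1 the SD within groups (0.48 and 0.59) was no smaller than that over all animals (0.46 and 0.56).

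The chains not described further on are given by their range over the 27 animals. In the fibrillar class Col27a1 had 9.18 to 46.6 CPM, Col5a2 13.4 to 31.7 CPM, Col5a1 5.02 to 13.6 CPM and Col2a1 0.784 to 5.26 CPM. Col11a1 had 2.05 to 19.5 CPM, with its lowest and highest values both among NT males. Type VI is the beaded collagen found between fibres and basement membranes, and its chain Col6a2 had 12.1 to 18.6 CPM in NT females, 15.1 to 21.4 CPM in NT males (median 17.6), 10.7 to 26.5 CPM in LB females (median 13.6) and 10.2 to 20.02 CPM in LB males (median 16.1). The 4 groups overlapped.

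Col9a2 had 35.7, 42.3, 45.0, 47.1 and 59.2 CPM in the NT females and 18.5 to 72.5 CPM in the NT males (median 39.8). It had 37.8 to 74.1 CPM in LB females (median 39.1) and 29.4 to 59.0 CPM in LB males (median 42.8). Its highest value was in LB female 5023 and its lowest in NT male 6112. Of the basement membrane chains Col4a3 had 0.865 to 4.83 CPM and Col4a4 0.264 to 1.89 CPM, the latter reaching down to the floor. Col15a1, the other multiplexin, had 0.434 to 3.23 CPM. Col23a1, the most abundant transmembrane chain per kilobase, had 7.63 to 12.3 CPM in NT females (median 10.5), 6.07 to 9.33 CPM in NT males (median 7.99), 6.11 to 16.5 CPM in LB females (median 8.56) and 4.22 to 13.8 CPM in LB males (median 7.03). Col13a1, known from the neuromuscular junction, had 2.54 to 11.4 CPM, and Col17a1 0.217 to 1.10 CPM. Col7a1 had 0.620 to 3.12 CPM.

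The make-up of the collagen message was then described by class, as each class's share of the summed CPM per kilobase of the 27 chains. Fibrillar chains took a median of 39.3% over all animals, FACIT chains 20.9%, multiplexins 14.98%, basement membrane chains 11.5%, transmembrane chains 6.63% and the type VI filament chains 5.16%. Col1a2 was hardly counted, and the symbol rule found no Col4a2, Col6a1, Col6a3, Col8a2 or Col9a3, among others, in the count table. The shares are therefore of the chains counted.

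The fibrillar share differed by sex in the same direction in each rearing group. It was 32.2% to 38.1% in NT females (median 34.6%) and 36.5% to 49.9% in NT males (median 44.5%). In LB females it was 28.7% to 36.8% (median 33.0%), and in LB males 39.3% to 47.5% (median 45.5%). The LB ranges did not overlap, while among NT rats 1 male fell within the range of the females.

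The multiplexin share ran the other way. It was 15.9% to 20.9% in NT females and 10.2% to 14.8% in NT males, and 15.7% to 22.4% in LB females and 11.9% to 15.4% in LB males, so that no male reached a female of the same rearing group. Basement membrane chains showed no such separation, with 8.87% to 13.3% in NT females, 8.00% to 14.7% in NT males, 10.6% to 18.3% in LB females and 7.57% to 12.6% in LB males. The FACIT share was widest in NT males, at 11.8% to 27.0%, against 20.05% to 22.3% in NT females. These shares are descriptions and carry no test, and within an animal a rise in a share lowers the others. FACIT values were mostly Col9a2 (mean 15.1 CPM per kilobase, against 1.99 for Col16a1 and 0.178 for Col14a1). Multiplexin values were nearly all Col18a1 (mean 12.4 CPM per kilobase, against 0.270 for Col15a1). As summed CPM per kilobase the multiplexins overlapped between the sexes. They had 12.7 to 17.4 in NT females and 7.98 to 15.03 in NT males, and 11.9 to 18.6 in LB females and 7.76 to 15.03 in LB males.

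**Figure D2:**
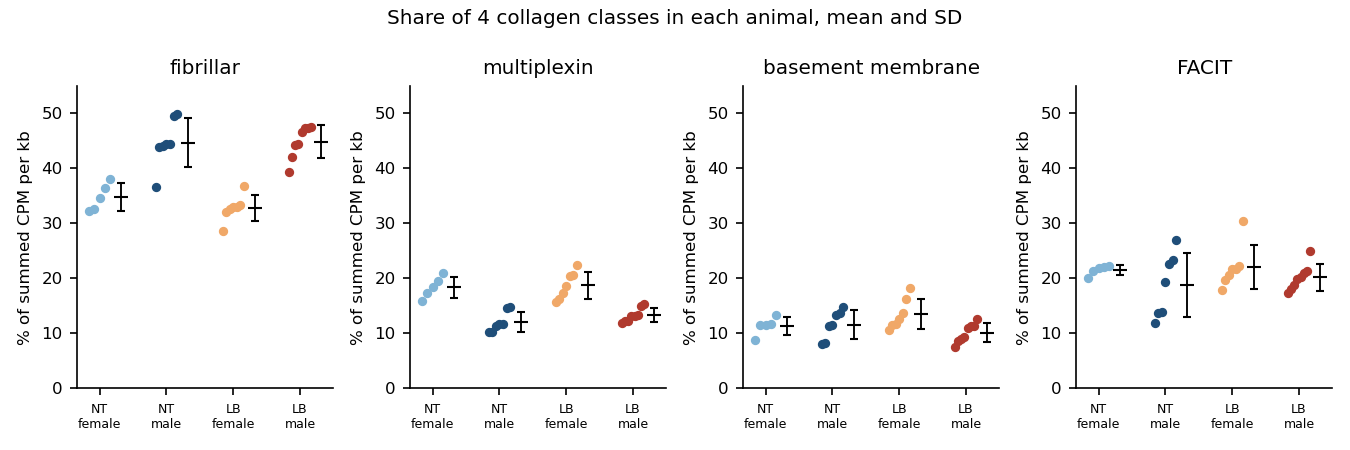
Share of the summed CPM per kilobase of 27 collagen chains taken by fibrillar, multiplexin, basement membrane and FACIT chains, with 1 point per animal and the mean and SD beside each group. The fibrillar share is higher in LB males (39.3% to 47.5%) than in LB females (28.7% to 36.8%), and the multiplexin share is lower in males of each rearing group.

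The same contrast was visible within single libraries, where the ratio of 2 genes' counts does not depend on normalization. These ratios come from the same counts as the shares and are not separate evidence. Col1a1 had 0.290 to 0.670 counts per Col18a1 count in LB females and 1.10 to 1.61 in LB males. Among NT rats the ratio was 0.442 to 0.764 in females and 0.670 to 1.89 in males. Per Col4a1 count, Col1a1 had 0.265 to 0.825 counts in LB females and 0.942 to 1.82 in LB males. In NT rats that ratio overlapped, at 0.696 to 1.18 in females and 0.717 to 2.28 in males. The ratio of Col1a1 to Col3a1 counts, in contrast, had medians of 1.66 in females and 1.87 in males among NT rats, and of 1.76 and 1.97 among LB rats.

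The first comparison asked how males and females differed under normal rearing. In NT rats, Col11a2, Col5a3, Col16a1 and Col8a1 were higher in males and Col18a1 was lower, which is 5 of the 24 chains tested (20.8%). Over all 12107 genes tested, 15.2% were called in this comparison, so the share among collagen chains was near the background. By direction, 10.1% of all genes were higher and 5.08% lower in males. At an unadjusted p under 0.05 there were 9 chains, against 33.1% of all genes. Leaving out 1 animal moved the share of all genes called between 4.84% (without NT female 1011) and 22.6% (without LB female 5022), and it was at most 9.57% when 1 of the NT females, NT male 3111 or NT male 6112 was left out. The median log2 fold change, males over females, was 0.24 for the 24 chains and 0.03 for all genes, and 18 of the 24 estimates were above 0.

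Col11a2, a minor fibrillar chain (rn6 chr20:3830164-3859022, plus strand), had 13.98, 14.5, 19.2, 19.7 and 20.3 CPM in the NT females. The NT males ran from 14.2 to 58.5 CPM with a median of 39.2. All NT males but 3112 exceeded every NT female. The log2 fold change was 1.13 ± 0.27 (SE, adjusted p = 0.0125, edgeR quasi-likelihood test), a 2.19-fold difference.

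Col5a3, a type V chain (rn6 chr8:21786324-21831668, minus strand), had 8.66, 9.50, 9.78, 11.1 and 12.97 CPM in the NT females and 7.71 to 20.9 CPM in the NT males (median 18.6). NT male 3112 was again the exception, below every female, while the other 6 males exceeded every female. Its log2 fold change was 0.69 ± 0.22 (adjusted p = 0.0335).

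Col16a1, a FACIT chain (rn6 chr5:148257593-148311645, plus strand), had 6.44, 7.29, 8.31, 9.06 and 9.24 CPM in the NT females and 7.57 to 20.5 CPM in the NT males (median 13.2), with 6 of 7 males above every female. Its log2 fold change was 0.74 ± 0.25 (adjusted p = 0.0449). The same animal, NT male 3112, was the 1 inside the range of the females.

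Col8a1, a short chain of network-forming type VIII collagen (rn6 chr11:44877918-45006052, plus strand), had 0.204, 0.429, 0.453, 0.820 and 0.837 CPM in the NT females. The NT males had 0.555 to 1.65 CPM apart from NT male 4113, which had 6.93 CPM. The fitted log2 fold change was 1.73 ± 0.59 (adjusted p = 0.0460), and without NT male 4113 it was 0.84 with an adjusted p of 0.219. That animal also had the choroid plexus sum of 6527 CPM given above, and the part of that tissue in the result was not tested.

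Col18a1 (rn6 chr20:12225202-12332858, plus strand) had 62.3, 64.5, 70.3, 77.6 and 85.4 CPM in the NT females and 36.9 to 74.6 CPM in the NT males (median 53.3). All NT males but 4111 lay below every NT female. Its log2 fold change was -0.47 ± 0.16 (adjusted p = 0.0470), or 27.9% lower in males.

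Apart from Col11a2, these calls lay close to the threshold and moved with the animals used. Col11a2 passed in each of 27 fits that left out 1 animal, Col5a3 in 19, Col16a1 in 16, Col8a1 in 12 and Col18a1 in 8. Leaving out any of the 5 NT females, NT male 3111 or NT male 6112 left Col11a2 as the only call. It left 2 without LB female 5021, and 3 without NT male 4113, LB female 5023, 8022 or 8024, or LB male 123, 7122 or 9123. Tissue composition moved with sex in these animals: the granule cell sum was 6325 to 6953 CPM in NT females and 1965 to 6216 in NT males. In NT males 3 of 7 granule cell genes were lower (5.08% of all genes) and 3 of 5 deep nucleus genes higher (10.1% of all genes). With the difference between deep nucleus and granule cell genes as a covariate, 0 chains were called (0.0248% of all genes). That covariate was -5.25 to -4.83 in NT females and -5.23 to 0.84 in NT males. Only NT male 4111 fell within the range of the females, so the covariate and sex are poorly separated in NT rats. Under limma-voom with title prefix as a random effect, 0 chains were called as well (0.0165% of all genes). The meningeal fibroblast sum was 171.0 to 264.8 CPM in NT females and 258.7 to 718.8 CPM in NT males, and with the mean log2 level of these genes as a covariate 1 chain was called (4.63% of all genes). The part of tissue composition in these results was not tested further.

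**Figure D3:**
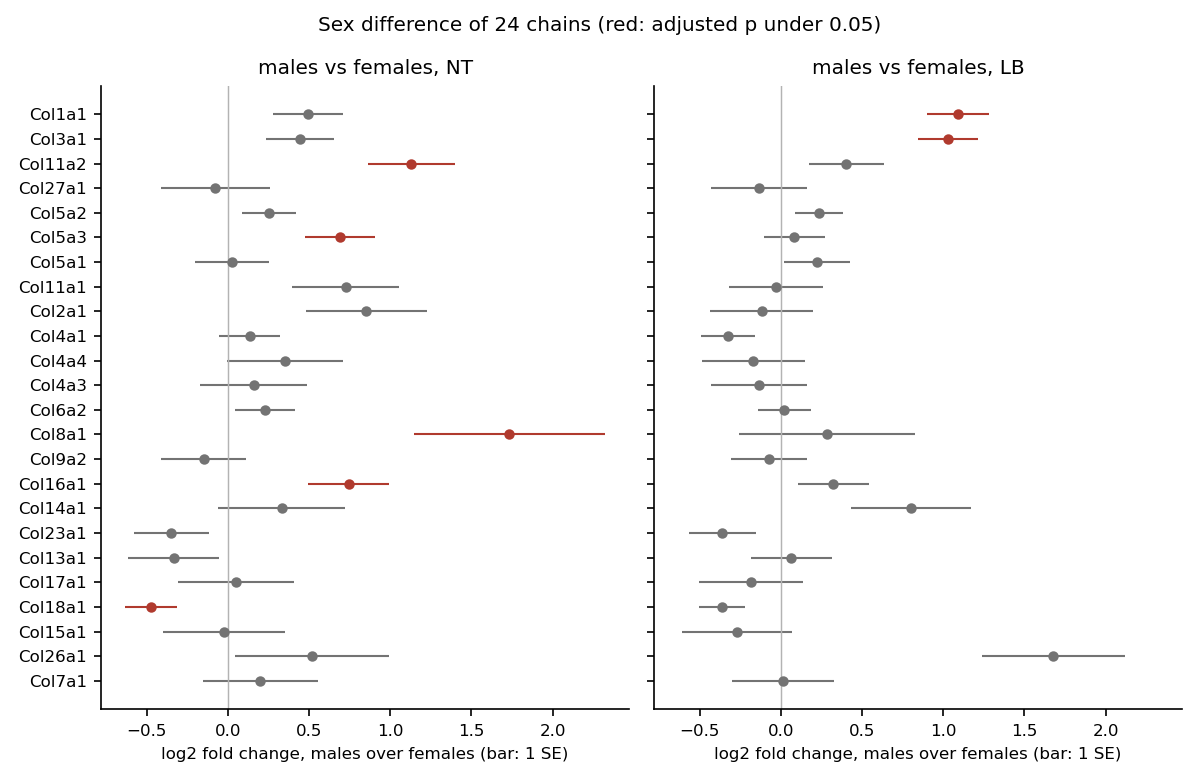
Log2 fold change of males over females with 1 SE for the 24 tested chains, in NT rats (left) and LB rats (right), with chains at an adjusted p under 0.05 in red. Col11a2, Col5a3, Col16a1, Col8a1 and Col18a1 are red in NT rats, and Col1a1 and Col3a1 in LB rats.

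The second comparison asked the same of rats reared with limited bedding. Col1a1 and Col3a1, the abundant chains of types I and III, were about double in LB males, and they were the only 2 of 24 chains called (8.33%). Over all genes 30 of 12107 were called, or 0.248%, with 0.206% higher and 0.0413% lower in males. At an unadjusted p under 0.05 there were 5 chains (17% of all genes). This background rested on 1 library. Without LB female 5022, 8.76% of all genes and 3 of 24 chains were called, while leaving out any other animal gave 0.0993% to 0.529% of all genes. DESeq2 called 3.37% of all genes. The other fibrillar chains had log2 fold changes between -0.13 and 0.40, and the median over the 24 chains was 0.02.

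Col1a1 (rn6 chr10:82745801-82762790, plus strand) ran from 16.95 to 47.5 CPM in LB females (median 34.2) and from 42.4 to 94.9 CPM in LB males (median 78.0). Of the 8 males, 7 exceeded every LB female. LB male 122 had 42.4 CPM and lay within the range of the females. The log2 fold change was 1.09 ± 0.19 (adjusted p = 0.00646), a 2.13-fold difference.

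Col3a1 (rn6 chr9:52023295-52059221, plus strand) ran from 11.4 to 23.6 CPM in LB females (median 19.9) and from 28.1 to 47.0 CPM in LB males (median 35.9). Every LB male exceeded every LB female, with a log2 fold change of 1.03 ± 0.19 (adjusted p = 0.00736), a 2.04-fold difference. Both chains passed in each of 27 fits that left out 1 animal.

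Markers of meningeal fibroblasts, cells that make fibrillar collagen, moved with the same contrast. The sum of 12 such genes was 142.4 to 264.9 CPM in LB females and 293.6 to 525.3 CPM in LB males. Of the 11 tested, 4 were higher in LB males, as were 0.206% of all genes. No marker of the list was at 0 in all animals, and fewer fibroblasts and less RNA per fibroblast cannot be told apart in a punch. With the mean log2 level of the markers as a covariate, 0 chains were called (0.0248% of all genes), and the log2 fold changes of Col1a1 and Col3a1 were 0.24 and 0.19. With title prefix as a random effect in limma-voom they were 1.11 and 1.03, each with an adjusted p of 0.156, and 0 chains were called (0.033% of all genes). Both chains passed with the deep nucleus and granule cell covariate (0.24% of all genes).

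**Figure D4:**
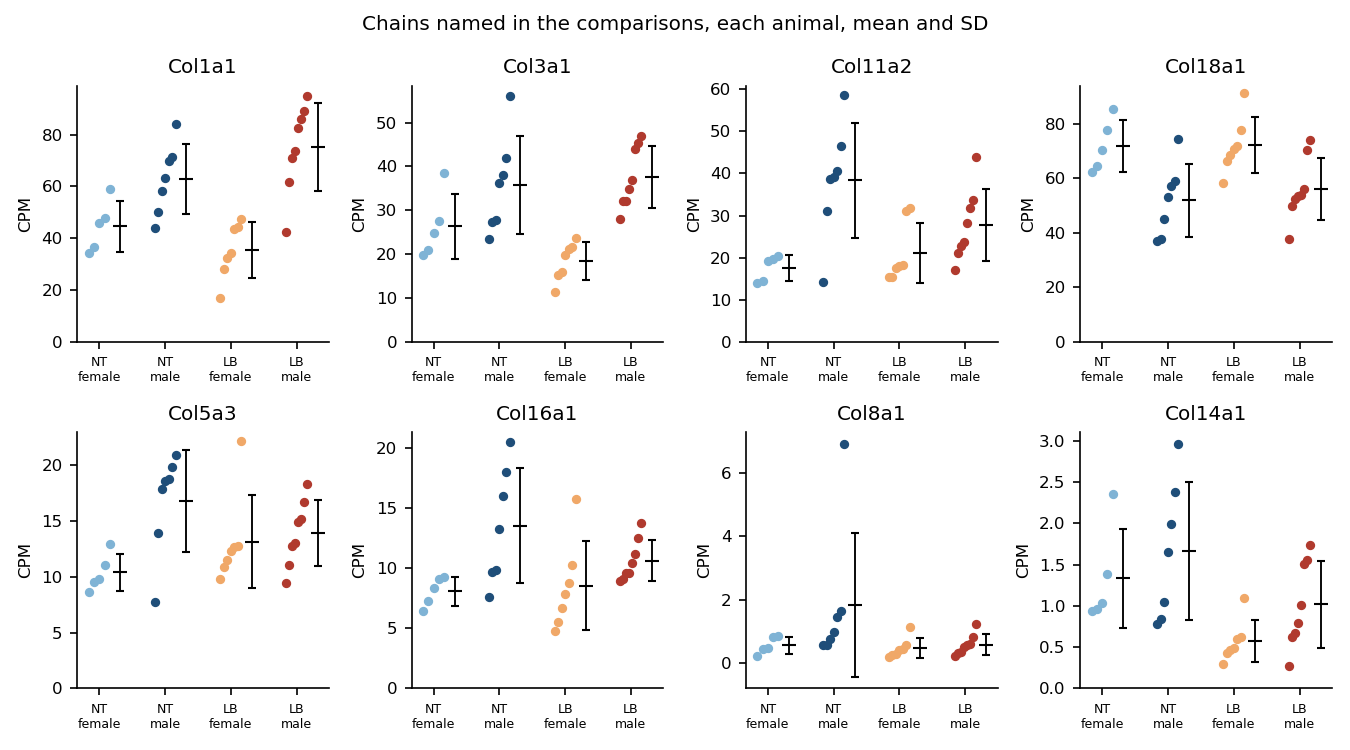
CPM of 8 collagen chains in each animal by group, with the mean and SD beside the points. Col3a1 in LB males (28.1 to 47.0 CPM) lies above all LB females (11.4 to 23.6 CPM), and 1 NT male stands at 6.93 CPM of Col8a1.

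Col26a1, Col18a1 and Col14a1 had the next smallest unadjusted p-values in LB rats and did not pass the test. Col26a1 had 0.0603 to 0.519 CPM in LB females and 0.396 to 1.48 CPM in LB males (log2 fold change 1.68 ± 0.44, adjusted p = 0.0857), at 1 to 22 counts per animal. Col18a1 had 58.4 to 91.2 CPM in LB females (median 70.9) and 37.8 to 74.1 CPM in LB males (median 53.8), with a log2 fold change of -0.36 ± 0.14 (adjusted p = 0.196). Col14a1, a FACIT chain, had a log2 fold change of 0.80 ± 0.37 (adjusted p = 0.268).

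Basement membrane chains were not called in either rearing group. Col4a1 had 49.2, 49.9, 49.9, 49.9 and 52.8 CPM in the NT females, the narrowest range of any group, and 36.9 to 68.7 CPM in the NT males. It had 47.4 to 108.5 CPM in LB females and 28.7 to 65.6 CPM in LB males, where the log2 fold change was -0.33 ± 0.17 (adjusted p = 0.312). The endothelial sum was 415.3 to 530.5 CPM in NT females and 436.8 to 739.2 CPM in LB females, and LB female 5022 was the highest for Col4a1 and for that sum. Col4a3 and Col4a4 had log2 fold changes of 0.16 and 0.35 in NT rats and -0.14 and -0.17 in LB rats.

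Averaged over the rearing groups, and so over the same animals, 7 of 24 chains were called for sex (29.2%), close to the 29.3% of all genes called (16.9% higher and 12.4% lower in males). At an unadjusted p under 0.05 there were 11 chains, against 42.1% of all genes. Col1a1 (log2 fold change 0.79 ± 0.14, adjusted p = 0.00116), Col3a1 (0.74 ± 0.14, adjusted p = 0.00153), Col11a2 (0.77 ± 0.18), Col26a1 (1.10 ± 0.32), Col16a1 (0.53 ± 0.17) and Col5a3 (0.39 ± 0.14) were higher in males. Col26a1 reached below the floor of 0.125 to 0.260 CPM among LB females, so the size of its fold change is uncertain. Col18a1 was lower (-0.42 ± 0.11, adjusted p = 0.00660). Col5a3 passed in 10 of the 27 fits that left out 1 animal, and the other 6 passed in all 27. With title prefix as a random effect in limma-voom, Col1a1, Col3a1, Col11a2 and Col18a1 passed and Col26a1, Col16a1 and Col5a3 did not (8.5% of all genes). Over all animals 10 of 11 meningeal markers were higher in males, as were 16.9% of all genes. With the marker covariate 0 chains were called (0.0248% of all genes), and with the deep nucleus and granule cell covariate 1 was (0.14% of all genes). The marker covariate did not overlap between the sexes in LB rats, so it and sex are poorly separated there. The deep nucleus and granule cell covariate and sex are poorly separated in NT rats.

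The third question was whether rearing changed the collagen chains. No chain passed in LB against NT males, in LB against NT females or over all animals, where 0, 1 and 1 of 12107 genes passed (0%, 0.00826% and 0.00826%). Without LB female 8021, 330 genes (2.73%) passed over all animals, 1 of them a collagen chain, and 7 genes (0.0579%) in females. Before adjustment 3, 2 and 2 chains had p under 0.05, against 10%, 7.94% and 14.9% of all genes. DESeq2 and limma-voom also called 0 chains in each. In LB against NT males 5 of 24 estimates were above 0 (median log2 fold change -0.21, against -0.02 for all genes), and in females 11 of 24 (median -0.04, against 0.02).

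Col14a1 had the smallest unadjusted p over all animals. The NT females had 0.935, 0.968, 1.03, 1.39 and 2.36 CPM, and the LB females 0.290 to 1.09 CPM (median 0.489). All LB females but 8021 lay below every NT female. NT males had 0.780 to 2.97 CPM and LB males 0.265 to 1.74 CPM. The log2 fold change, LB over NT, was -1.20 ± 0.40 in females (adjusted p = 0.576), -0.73 ± 0.35 in males (adjusted p = 0.492) and -0.97 ± 0.27 over all animals (adjusted p = 0.182). Without LB female 8021 the adjusted p over all animals was 0.0367. Its counts were low, at 4 to 53 per animal. With the meningeal covariate the estimate for Col14a1 in females was -0.36, and the meningeal sum was 142.4 to 264.9 CPM in LB females and 171.0 to 264.8 CPM in NT females.

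Col3a1 was the other chain with an unadjusted p under 0.05 in females, with 19.8, 20.9, 24.7, 27.6 and 38.5 CPM in NT females and 11.4 to 23.6 CPM in LB females (log2 fold change -0.52 ± 0.21, adjusted p = 0.576). In males these were Col8a1 (-1.70 ± 0.50, adjusted p = 0.462), Col11a1 (-0.68 ± 0.29, adjusted p = 0.480) and Col14a1. The Col8a1 estimate was -0.80 without NT male 4113. Over all animals Col8a1 had -0.97 ± 0.39 (adjusted p = 0.257).

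The interaction of sex and rearing was tested directly, because Col1a1 and Col3a1 were called in LB rats and not in NT rats. Col1a1 had 34.3, 36.7, 45.8, 47.6 and 59.0 CPM in the NT females and 43.8 to 84.0 CPM in the NT males (median 63.1), where Col3a1 had 23.4 to 56.1 CPM (median 36.2). In NT rats their log2 fold changes were 0.49 ± 0.21 (adjusted p = 0.110) and 0.45 ± 0.21 (adjusted p = 0.135). The sex difference was larger in LB rats by 0.60 ± 0.28 for Col1a1 and by 0.58 ± 0.28 for Col3a1, and smaller by 0.61 ± 0.28 for Col5a3 and by 0.73 ± 0.35 for Col11a2. None passed (each adjusted p = 0.9998), and 0 of 12107 genes did (0%), with 570 genes (4.71%) at an unadjusted p under 0.05. A different sex effect in the rearing groups was thus not shown for any chain.

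Chains that assemble together, and some pairs across classes, were compared over the 27 animals on log2(CPM + 0.5). Of 15 pairs listed, 6 had both chains tested. Col1a1 and Col3a1 had a Pearson r of 0.845 and a Spearman rho of 0.806, each with a two-sided permutation p of 1e-05, the smallest that 100000 resamples can give, and 6e-05 after Benjamini-Hochberg adjustment over the 6 pairs. Without LB female 8023 and LB male 121, farthest from the median of Col1a1, r was 0.802. Within groups r was 0.707 in LB females, 0.4996 in LB males and 0.542 in NT males, and centred on group means it was 0.624 (adjusted permutation p = 0.00588), where rho was 0.533 (adjusted permutation p = 0.0505). Centred on title prefix means r was 0.669 (adjusted permutation p = 0.0416), where rho was 0.560 (adjusted permutation p = 0.105).

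The other 5 pairs did not pass. Col4a3 and Col4a4, which share upstream bases, had r = 0.346 and rho = 0.281 (adjusted permutation p = 0.180 and 0.343). Col11a1 and Col11a2 had r = 0.332, and Col5a1 and Col5a2, partner chains of type V, had r = 0.181. Col1a1 and Col4a1 had r = -0.109, and Col15a1 and Col18a1, the multiplexins, had r = -0.138. At 4 to 34 counts per animal for Col4a4 and 6 to 51 for Col15a1, counting error limits what these pairs can show.

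**Figure D5:**
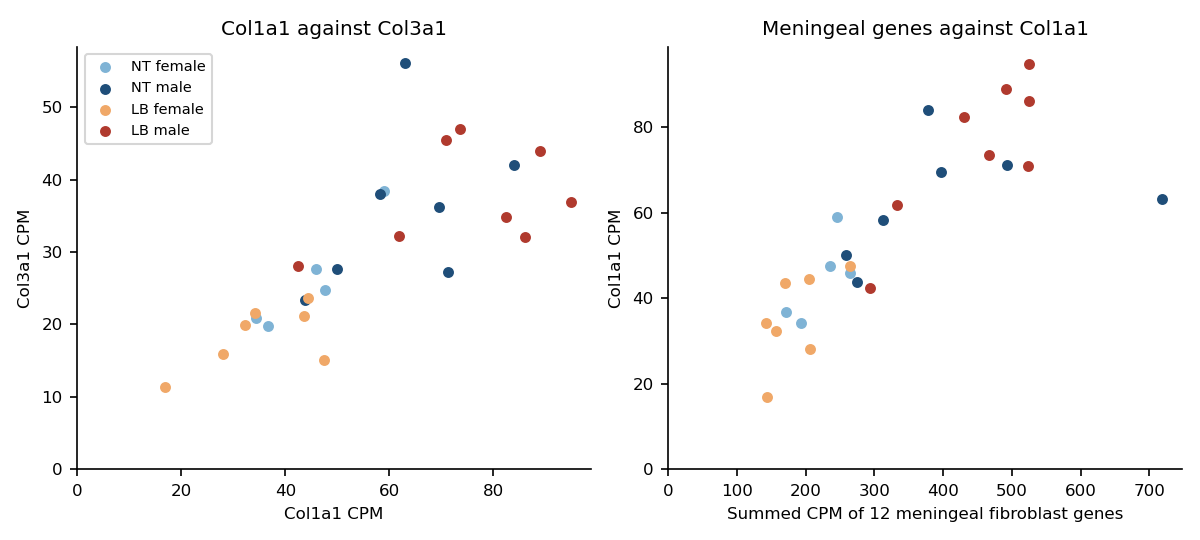
Left, CPM of Col1a1 against Col3a1 in 27 animals. Right, summed CPM of 12 meningeal fibroblast genes against CPM of Col1a1, with points coloured by group. Col1a1 and Col3a1 rise together (r = 0.845 on the log2 scale), and LB males have 293.6 to 525.3 CPM of the meningeal genes against 142.4 to 264.9 CPM in LB females.

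Genes that fold, process, bind, sense or degrade collagen were read from 5 lists. In NT rats 1 of 21 folding, modifying and cross-linking genes was called for sex, 0 of 6 processing proteases, 1 of 8 collagen-binding matrix genes, 2 of 7 receptors and 2 of 11 degrading enzymes and inhibitors, all higher in males. Over all genes 15.2% were called in this comparison (10.1% higher), so these counts are not read as results about the lists. Serpinh1, the collagen chaperone, had a log2 fold change of 0.52 ± 0.16 (adjusted p = 0.0325). Dcn, a small proteoglycan of fibrils that is also on the meningeal list, had 0.81 ± 0.20 (adjusted p = 0.0135). The receptors were Adgrg1 (0.76 ± 0.26), which binds type III collagen, and Itgb1 (0.40 ± 0.14). Timp2, an inhibitor of matrix metalloproteinases, had 1.36 ± 0.39. Mmp9, a gelatinase, had 0 to 0.153 CPM in NT females and 0 to 4.44 CPM in NT males, and no fold is given because the females lay at or about the floor. Of these, Dcn passed in each of 27 fits without 1 animal, Timp2 in 23, Serpinh1 and Mmp9 in 20, Adgrg1 in 13 and Itgb1 in 7. None of the 6 passed with title prefix as a random effect or with the deep nucleus and granule cell covariate, which is poorly separated from sex in NT rats.

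In LB rats the lists held 0, 1, 1, 0 and 0 calls for sex, where 0.248% of all genes were called (8.76% without LB female 5022). The 2 genes, named after their values were seen, were Pcolce, the enhancer of procollagen C-proteinase (log2 fold change 1.07 ± 0.22, adjusted p = 0.0334), and Fmod, a fibril-binding proteoglycan that is also on the meningeal list (2.02 ± 0.31, adjusted p = 0.00170). Pcolce had 3.56 to 8.51 CPM in LB females and 5.83 to 16.6 CPM in LB males. Fmod had 1.52 to 7.06 CPM in LB females and 8.69 to 18.4 CPM in LB males, with no overlap. Serpinh1 had a log2 fold change of 0.05 ± 0.14 in the same comparison. No gene of the 5 lists was called for rearing in either sex.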

How the data were processed

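Punches of the interpositus nucleus from 27 rats were profiled by poly(A) RNA sequencing. The authors aligned reads to rn6 with STAR 2.5.2b and deposited featureCounts (Subread 1.5.1) gene counts, not normalized. Strand, annotation release and treatment of reads with several matches are not given in the sources used here. Punches with low RNA integrity had been removed by the authors. From the counts, edgeR 4.0.16 (R 4.3.3) kept 12107 genes by filterByExpr (minimum count 10, total 15), scaled libraries by TMM, fitted 1 robust quasi-likelihood model with the 4 groups and adjusted p-values by Benjamini-Hochberg over all genes tested (threshold 0.05). CPM use the TMM library sizes, and CPM per kilobase the deposited exon length. Rearing and sex came from the labels. At this depth 3 counts are 0.125 to 0.260 CPM, a limit of counting error only. Pairs of chains were tested by permutation on log2(CPM + 0.5). Alternatives used DESeq2 1.42.0, limma 3.58.1, other scalings and filters, covariates, the title prefix as a block, and each animal left out.

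The members, classes, marker and pathway lists were chosen with earlier results of these data known. Text names every chain past the threshold, in comparisons with fewer than 3 such chains also those with the smallest unadjusted p under 0.05 (at most 5), and at most 3 called genes per pathway list. Marker lists for oligodendrocyte precursors, mural and Purkinje cells are given in the closing section.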

Additional observations from a re-analysis of the deposited data

Results flagged for a closer look

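In 128 sets of values (24 chains and 8 class shares in each of 4 groups), 10 held an animal whose gap to the next exceeded the Dixon limit at 95% (7.81%), where chance gives about 1 in 20. Of these, 4 were in LB female 5022. It had 108.5 CPM of Col4a1 (other LB females 47.4 to 63.9), 22.2 CPM of Col5a3 (9.78 to 12.8) and 26.5 CPM of Col6a2 (10.7 to 15.2). Its beaded filament share was 7.51% (4.31% to 5.59%), which is nearly all Col6a2 again. The same library had the highest endothelial sum of the 27 animals (739.2 CPM) and the highest mural sum of its group (321.6 CPM, others 205.1 to 255.9). The part of these cells in the values was not tested.

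NT male 4113 had 6.93 CPM of Col8a1 (other NT males 0.555 to 1.65) and a network-forming share of 2.80% (0.224% to 0.752%), which is the same gene. NT male 3112 had 7.71 CPM of Col5a3 (13.9 to 20.9). LB female 5023 had a FACIT share of 30.5% (17.9% to 22.3%). In the NT females, 2013 had 52.8 CPM of Col4a1 (49.2 to 49.9) and 1011 had 23.6 CPM of Col5a2 (17.6 to 18.9).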

How the results depend on the processing

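The count of chains called for sex in NT rats was 5 of 24 (15.2% of all genes). It was 2 with limma-voom (10.3% of all genes) and 1 with only the groups compared (11.5%). With at least 10 counts in every animal it was 3 of 18 chains tested (14.7% of all genes). The meningeal covariate left 1 (4.63%) and the title prefix block 0 (0.0165%). The deep nucleus and granule cell covariate, poorly separated from sex in NT rats, left 0 (0.0248%). In LB rats the count was 2 (0.248% of all genes). It was 0 with the meningeal covariate (0.0248%), which did not overlap between the sexes there, or the prefix block (0.033%). Over all animals it was 7 (29.3% of all genes), and 4 with the prefix block (8.5%). It was 0 with the meningeal covariate (0.0248%) and 1 with the deep nucleus and granule cell covariate (0.14%). Leaving out 1 animal gave 1 to 5 chains in NT rats (3 without NT male 4113), where 4.84% to 22.6% of all genes were called. The same fits gave 2 to 3 chains in LB rats (0.0993% to 8.76% of all genes). Over all animals they gave 6 to 8 chains (23% to 42.4% of all genes). For rearing the same fits gave 0 to 0 in males and in females and 0 to 1 over all animals (0.0082% to 2.73% of all genes). For the interaction they gave 0 to 0. The other scalings, DESeq2 and the fit with no filter kept each of these counts within 1.5 times. With the meningeal covariate the log2 fold change, males over females, turned to -0.71 for Col14a1 in LB rats and to -0.041 for Col26a1 over all animals. Measured as raw counts without length correction, the median share was 46.4% for fibrillar, 13.98% for FACIT, 14.6% for basement membrane, 3.92% for beaded filament and 4.12% for transmembrane chains. The correlation of Col1a1 and Col4a1 was 0.201 centred on groups and 0.161 centred on prefixes, and that of Col15a1 and Col18a1 was 0.249 centred on prefixes and 0.313 without the 2 animals farthest from the median, none past the threshold. The causes of these changes were not tested, and fewer animals or genes enter some fits. No paired analysis was possible because the labels give no numbers that pair animals across groups. Chains under about 50 counts per animal, such as Col14a1, Col26a1 and Col8a1, are limited by counting error.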

Other observations

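Other cell markers were read beside the collagen chains. Summed over 11 mural cell genes, NT females had 203.4 to 248.6 CPM and NT males 233.8 to 372.8 CPM, with 2 of 11 genes higher in NT males (10.1% of all genes were higher), and LB females had 205.1 to 321.6 CPM and LB males 166.8 to 298.6 CPM, with 0 of 11 called (0.248% of all genes). The 7 genes of oligodendrocyte precursors summed to 202.2 to 230.2 CPM in NT females and 223.6 to 471.6 CPM in NT males. Of these, 3 of 6 tested were higher in NT males (10.1% of all genes), and 0 of 6 were called for sex in LB rats (0.248% of all genes). The 6 Purkinje cell genes summed to 4190 to 4531 CPM in NT females and 2319 to 4600 CPM in NT males, where 3 of 6 were lower in males (5.08% of all genes). No endothelial gene of 11 was called for sex in NT rats, in LB rats or over all animals with the edgeR test, while 1, 3 and 1 had an unadjusted p under 0.05, as did 33.1%, 17% and 42.1% of all genes. Choroid plexus genes other than in NT male 4113 summed to 11.9 to 257.3 CPM.

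Col9a1, the partner of Col9a2 in type IX collagen, had a median of 2 counts per animal where Col9a2 had a median of 726. It reached 19 counts (1.65 CPM) in NT male 3111, 18 in NT male 6111 and 21 (1.39 CPM) in LB male 122, and was at 6 or fewer in every female.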
